A study of Bos taurus with 90 samples.

Results

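The 5 miRNAs described here were miR-375, miR-7, miR-153, miR-1224 and miR-9-5p, out of 388 miRNAs listed in at least 1 of 5 dairy cow tissues. They are known from enteroendocrine cells, pancreatic islets and neurons, and they were chosen by name with their measured CPM across tissues, in duodenum against jejunum, and their co-variation in the gut already known. These values are therefore given as a description without a test. Diet played no role in the choice, and diets were tested. All 5 were listed in rumen, duodenum and jejunum. Liver did not list miR-1224, and mammary gland listed neither miR-153 nor miR-1224, so these have no value there.

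The samples came from 18 Chinese Holstein cows in mid-lactation, slaughtered for sampling, with 6 cows on each of 3 forages, namely alfalfa hay, corn stover and rice straw. Each cow gave rumen epithelium, duodenum epithelium, jejunum epithelium, liver and mammary gland, which makes 90 samples, 18 per tissue and 6 per tissue and diet. There was no untreated group, and no genotype or drug differed between cows. The values are reads of a miRNA scaled to the total mapped to miRNAs (CPM), and the totals behind them ran from 937556 to 15621501 reads. At these totals 3 reads were worth 0.192 to 3.20 CPM. In bulk tissue fewer cells of a type and less miRNA per cell cannot be told apart.

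Enteroendocrine cells are hormone-secreting cells scattered singly through the gut epithelium, and they share much of their secretory machinery with pancreatic islet cells and neurons. miR-375 is the classical islet miRNA, where it restrains insulin secretion, and it is also abundant in gut epithelium. miR-7 is a miRNA of neurons and endocrine cells that is known to act on growth factor signalling. miR-153 is known to target components of vesicle release, and miR-9 is a brain miRNA of neural progenitors and neurons. miR-1224 is made from an intron and is known as a brain miRNA.

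Several of their genes lie inside other genes in the bovine annotation (RefSeq names on ARS-UCD2.0, used for neighbours only). MIR153-1 lies within PTPRN and MIR153-2 within PTPRN2, which encode the dense-core vesicle proteins IA-2 and phogrin. MIR1224 lies within VWA5B2. MIR7-2 lies within HNRNPK, a gene for an abundant RNA-binding protein, while MIR7-3 lies in no annotated gene, near FEM1A and TICAM1. MIR375 stands between CFAP65 and CRYBA2. MIR9-1 stands near POLG and FANCI, and MIR9-2 lies within a long non-coding RNA near MEF2C. A mature miRNA read does not say which of several loci it came from.

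The tissues were checked against marker miRNAs. miR-122, the hepatocyte miRNA, had 8671 to 12721 CPM in liver and at most 48.5 in mammary gland, and rumen, duodenum and jejunum did not list it. miR-205, of stratified and mammary epithelium, ran from 23016 to 52132 CPM in rumen, and jejunum did not list it. 2 libraries stood apart. The liver library of alfalfa hay replicate 2 had 1525 CPM of miR-205 against 0 to 13.0 in the other 17, and 1896 CPM over the miR-200 list (miR-200a, miR-200b, miR-200c, miR-141 and miR-429, which mark epithelium) against 247 to 737. The mammary gland library of rice straw replicate 3 had 599.9 CPM over 3 striated muscle miRNAs against 22.3 to 243 in the others. Means that rest on either are given with and without it. For liver and mammary gland, correlations, diet tests of the miRNAs described here and percentages of the miR-200 list are not given without that library alone.

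miR-375 had the highest mean of the 5 in every tissue but rumen, and its levels were highest in the small intestine. In duodenum it ran from 4498 through a median of 6844 to 10852 CPM, with a mean of 6785 ± 1810 (SD, n = 18), rank 24 among the miRNAs listed there. In jejunum it ran from 2669 through 3927 to 6948 CPM, with a mean of 4236 ± 1123 (SD, n = 18). Both segments overlapped, with 9 duodenum samples above every jejunum sample.

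Mammary gland came next for miR-375, at 952 to 3029 CPM with a median of 1877 and a mean of 1856 ± 686 (SD, n = 18). The jejunum and mammary gland ranges overlapped, but 16 of the 18 jejunum samples lay above the highest mammary gland sample. Liver had 49.9 to 475 CPM with a median of 88.4, far below mammary gland with no overlap (ratio of the means 16.4). Its mean was 113 ± 96.4 CPM (SD, n = 18), and 92.0 ± 35.1 (SD, n = 17) without the library that stood apart. Rumen was lowest, at 6.84 to 106 CPM with a median of 20.2 and a mean of 30.2 ± 28.8 (SD, n = 18), which put the duodenum mean 225 times above it. Liver and rumen overlapped.

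**Figure D1:**
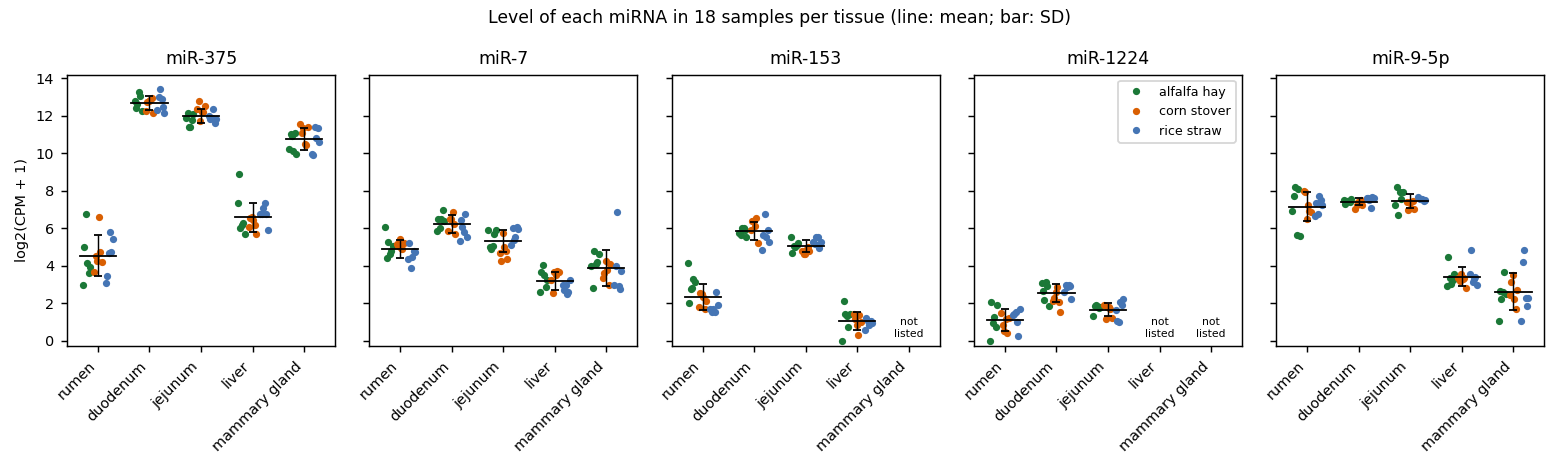
Level of each of the 5 miRNAs as log2(CPM + 1) in rumen, duodenum, jejunum, liver and mammary gland; points are samples coloured by diet, lines are means and bars SD over 18 samples. miR-375 is highest in the gut and mammary gland, and miR-153 separates gut from rumen and liver. The means of miR-9-5p are close in rumen, duodenum and jejunum, with the rumen samples spread more widely. "Not listed" marks tissues whose files give no value.

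This order of the tissues was not that of the epithelial miR-200 list. The list summed to a median of 18451 CPM in rumen and 42444 in mammary gland, above the 11082 of duodenum and the 7725 of jejunum. As a percentage of that sum, miR-375 had a median of 57.6 in duodenum (40.9 to 87.8) and 51.2 in jejunum (26.8 to 73.0). The percentage was 4.55 in mammary gland (1.63 to 24.4) and 0.112 in rumen (0.0191 to 0.585). Liver stood between these with a median of 21.8 (11.4 to 66.6), over a sum of only 404 CPM. Duodenum and jejunum overlapped widely on this scale, and rumen lay below every sample of the other tissues.

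**Figure D2:**
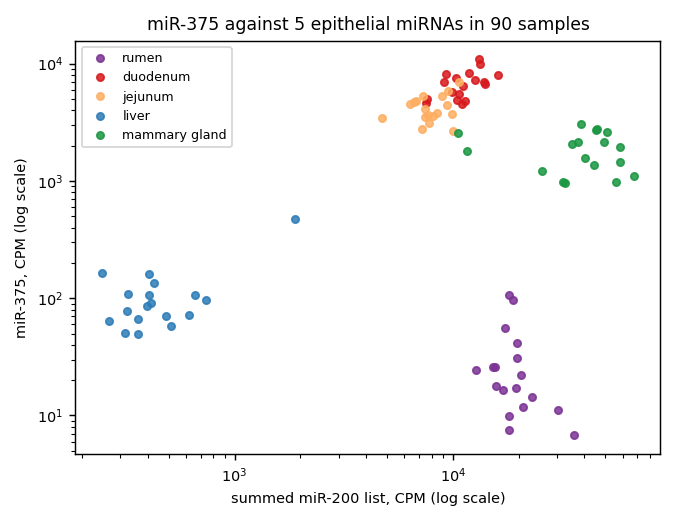
miR-375 against the sum of miR-200a, miR-200b, miR-200c, miR-141 and miR-429 in 90 samples, both in CPM on log axes, coloured by tissue. Duodenum and jejunum lie together, mammary gland has more of the miR-200 list with less miR-375, and rumen has a list sum of 12824 to 35851 CPM with at most 106 CPM of miR-375. The single liver point at 1896 CPM on the horizontal axis is the liver library that stood apart.

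miR-7 followed a shallower gradient. Duodenum had 39.7 to 126 CPM with a median of 79.2 and a mean of 77.0 ± 24.6 (SD, n = 18). Jejunum had 18.2 to 65.4 CPM with a median of 36.9, and rumen had 13.8 to 66.5 with a median of 29.1. No jejunum sample exceeded all rumen samples, which rests on rumen alfalfa hay replicate 1 at 66.5 CPM. Without it the rumen maximum was 42.8 CPM, and 8 of the 18 jejunum samples lay above that.

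Mammary gland had 5.89 to 117 CPM of miR-7 with a median of 13.8, and liver 4.55 to 15.2 with a median of 8.45. The mammary gland mean was 19.0 ± 25.1 CPM (SD, n = 18), and 13.2 ± 6.07 (SD, n = 17) without the library that stood apart, which supplied the value of 117. Every pair of neighbouring tissues overlapped, while duodenum and liver, the ends of the order, did not (ratio of the means 8.98).

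miR-153, with a copy inside each of 2 genes of dense-core vesicle proteins, was listed in 4 tissues and was highest in both gut segments. Duodenum had 27.4 to 107 CPM with a median of 58.6 and a mean of 60.04 ± 20.8 (SD, n = 18), and jejunum 23.8 to 46.0 with a median of 31.9 and a mean of 33.0 ± 7.27 (SD, n = 18). Rumen had 1.90 to 17.0 CPM with a median of 3.71, and its mean was 6.88 times below that of jejunum with no overlap. Liver had 0 to 3.295 CPM with a median of 1.10, and 4 of its samples were under 3 reads, so miR-153 was barely detectable there at this depth. The highest liver value belonged to the library that stood apart, and without it the liver mean moved from 1.18 to 1.05 CPM.

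miR-1224 was the scarcest. Duodenum had 1.88 to 7.67 CPM with a median of 5.23, which came to 11 to 99 reads per sample. Jejunum had 1.03 to 3.75 CPM with a median of 2.48, and rumen 0 to 3.27 with a median of 1.26. In rumen 4 samples were under 3 reads and 1 was at 0. All neighbouring ranges overlapped, and the duodenum mean was 3.92 times the rumen mean.

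miR-9-5p had a pattern of its own, with a rumen mean close to those of the intestine. Jejunum had 103 to 298 CPM with a median of 178, duodenum 128.99 to 203.1 with a median of 174, and rumen 46.7 to 299 with a median of 153. The means were 180 ± 47.1, 173 ± 21.7 and 160 ± 74.3 CPM (SD, n = 18 each), closer together than the spread within any of the 3. Of the 18 rumen samples 8 lay below every duodenum sample, while no duodenum sample lay above all rumen samples. Liver, at 5.98 to 27.5 CPM, lay below rumen without overlap (ratio of the means 15.4), and mammary gland had 1.07 to 28.0 with a mean of 6.78. Without the mammary gland library that stood apart, which supplied the 28.0, its maximum was 17.2 and its mean 5.54 CPM. The coefficient of variation was 12.6% in duodenum against 46.4% in rumen.

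The other strand of the miR-9 hairpin, miR-9-3p, had values in both gut segments and in rumen, and liver and mammary gland did not list it. Its mean was 2.57 CPM in rumen, 3.10 in duodenum and 2.45 in jejunum, so miR-9-5p exceeded it 62.2, 55.8 and 73.5 times in turn. Across the 18 samples of a tissue both strands moved together in rumen (r = 0.81) and jejunum (r = 0.72), and less so in duodenum (r = 0.56). Each such r is over 18 libraries, without a test, and both strands share a library, a CPM total and the diet.

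Within the small intestine, 4 of the 5 were lower in jejunum than in duodenum and miR-9-5p was level. From limma on log2(CPM + 1) over 36 samples with diet as a term, jejunum minus duodenum was -0.68 (SE 0.12) for miR-375, -0.91 (SE 0.16) for miR-7, -0.80 (SE 0.14) for miR-153 and -0.89 (SE 0.13) for miR-1224. It was 0.03 (SE 0.09) for miR-9-5p, against a median of 0.03 over all 331 miRNAs listed in both. These values belong to the contrast known when the miRNAs were chosen and carry no test. Over all 331, 27.2% were called (limma, adjusted p under 0.05), 12.4% lower in jejunum and 14.8% higher. This fit takes both segments of a cow as separate samples, so the pairing within cows is not used.

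**Figure D3:**
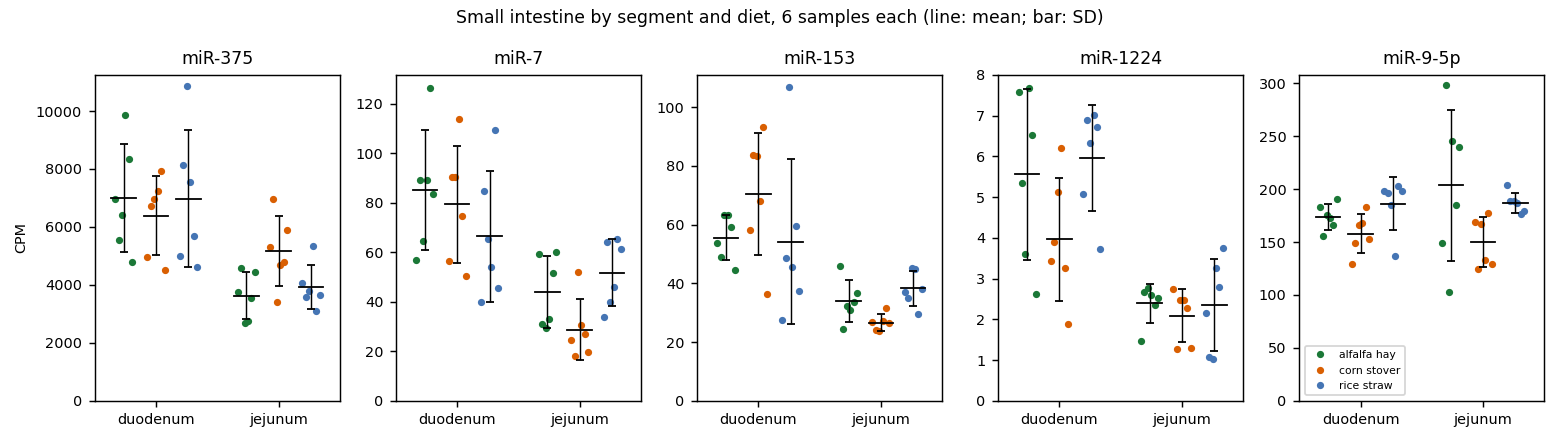
CPM of each of the 5 miRNAs in duodenum and jejunum by diet, with 6 samples per group as points, the mean as a line and SD as a bar; the vertical axis starts at 0 and differs between panels. miR-375, miR-7, miR-153 and miR-1224 are lower on average in jejunum in each diet, and miR-9-5p is level. In jejunum corn stover is lower on average than rice straw for miR-7 and miR-153 and higher on average for miR-375, with overlapping samples in each.

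Other epithelial miRNAs were lower in jejunum too. All 3 miRNAs of the intestinal epithelium list fell (miR-192, miR-194 and miR-215), and so did 4 of the 5 of the miR-200 list, with miR-200b at -0.80 (SE 0.09) and miR-200a at -0.62 (SE 0.11), while miR-429 was at -0.15 and did not pass. The summed intestinal list had a median of 330522 CPM in duodenum (231619 to 411412) and 231594 in jejunum (144396 to 305331). The miR-200 list had a median of 11082 CPM (7520 to 16058) and 7725 (4714 to 10702). Of the smooth muscle list miR-143 rose by 0.39 on the log2 scale (SE 0.10) while miR-145 was at 0.06 and did not pass, and the list had a median of 156743 CPM in duodenum (105624 to 215135) against 207207 in jejunum (147053 to 296908). Among immune miRNAs 1 of 5 rose, miR-223 of granulocytes, by 1.15 (SE 0.19). Of 3 striated muscle miRNAs miR-133a, at 0.41, and miR-133b, at 0.35, rose and miR-1, at -0.21, did not pass, and of 3 red blood cell miRNAs miR-486 rose by 0.55. The part of these in the lower miR-375, miR-7, miR-153 and miR-1224 was not tested.

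Of 16 other neural miRNAs listed in both segments, 3 passed the same test, against 27.2% of all 331. All lists used here were chosen with earlier results of these data known, and their calls carry that limit. The 16 hold 2 pairs with identical values, miR-124a with miR-124b and miR-129 with miR-129-5p. miR-132, an activity-regulated neuronal miRNA, rose in jejunum by 0.42 (SE 0.11, limma adjusted p = 0.00548), and miR-218, of motor neurons, by 0.33 (SE 0.11, limma adjusted p = 0.0188). miR-9-3p fell by 0.25 (SE 0.10, limma adjusted p = 0.0493). That call rests on 15 to 46 reads per sample in duodenum and 5 to 28 in jejunum, and the other strand, miR-9-5p, was level. Among the miR-183 cluster of sensory and secretory epithelium 1 of 3 passed, miR-96, which fell by 0.61 (SE 0.18, limma adjusted p = 0.00850). miR-182, at -0.05, and miR-183, at -0.24, did not pass. The 4 miRNAs that passed kept their direction and their call with upper-quartile and TMM scaling. The summed neural list had a median of 651 CPM in duodenum and 741 in jejunum.

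The step from duodenum to jejunum was also fitted in each diet. For miR-7 it was -1.47 with corn stover, -0.95 with alfalfa hay and -0.31 with rice straw (SE 0.26 each). For miR-153 it was -1.31, -0.70 and -0.37 in the same order (SE 0.21 each). For miR-375 the step was smallest with corn stover, at -0.31, against -0.94 with alfalfa hay and -0.79 with rice straw (SE 0.20 each). The diet by segment interaction, tested across 331 miRNAs of which 20.5% passed, in a fit that takes the segments of a cow as separate samples, did not pass for any of the 5. limma gave an adjusted p = 0.0536 for miR-7, 0.0551 for miR-153, 0.208 for miR-375, 0.597 for miR-1224 and 0.746 for miR-9-5p. With upper-quartile scaling the miR-7 interaction passed (limma adjusted p = 0.0335). With a term for each combination of diet and replicate number, the interaction passed for both miR-7 and miR-153, with the values given at the end. The labels do not say that a number is a cow.

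Diet was compared by a moderated F test over the 3 forages within each tissue. Differences between 2 diets were planned for miRNAs past that test. Those of miR-375 in jejunum and miR-153 in rumen are also given, although their F tests did not pass with CPM as deposited. In jejunum 23.7% of 337 miRNAs passed, and miR-7 and miR-153 were among them, 2 of the 5 miRNAs. Across the tissues the 5 miRNAs had 22 such tests, and apart from these 2 the lowest limma adjusted p was 0.0696.

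In jejunum miR-7 was lowest with corn stover. The corn stover samples ran from 18.2 through a median of 25.7 to 52.0 CPM, the alfalfa hay samples from 29.3 through 42.3 to 60.1 and the rice straw samples from 33.9 through 53.7 to 65.4. The groups overlapped, since corn stover replicate 3, at 52.0 CPM, lay among the rice straw samples, while the other 5 lay below all of them. The F test gave a limma adjusted p = 0.0340, and corn stover minus rice straw was -0.87 (SE 0.25, limma adjusted p = 0.0149). In the comparison with rice straw 19.6% of all miRNAs were called lower and 9.2% higher.

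Corn stover minus alfalfa hay was -0.62 for miR-7 and did not pass (SE 0.25, limma adjusted p = 0.0802), where 13.9% of all miRNAs were called lower and 8.01% higher. The F call held in 12 of 18 fits that each left out 1 sample. It was lost without rice straw replicate 2, 5 or 6 or corn stover replicate 1, 2 or 6, with adjusted p from limma up to 0.0922. The difference from rice straw passed in all 18 of those fits, at -1.06 to -0.76.

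miR-153 in jejunum had the same order. Its range was 23.8 to 31.5 CPM with corn stover (median 26.6), 24.4 to 46.0 with alfalfa hay (median 33.0) and 29.6 to 45.3 with rice straw (median 37.7). Corn stover and rice straw overlapped by 1 sample on each side. The F test gave a limma adjusted p = 0.0465 and corn stover minus rice straw -0.50 (SE 0.15, limma adjusted p = 0.0182).

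Corn stover minus alfalfa hay did not pass for miR-153 (-0.32, SE 0.15, limma adjusted p = 0.116). Its F call was less secure than that of miR-7, with 6 of the 18 fits keeping it. It was kept without alfalfa hay replicate 1, 2, 3 or 4, rice straw replicate 5 or corn stover replicate 5, and lost without each of the other 12 samples, with limma adjusted p up to 0.0991. The difference from rice straw passed in all 18, at -0.57 to -0.45.

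miR-375 in jejunum had its highest median with corn stover. Its corn stover samples ran from 3413 through a median of 5038 to 6948 CPM, against 2669 through 3637 to 4571 with alfalfa hay and 3108 through 3717 to 5344 with rice straw. All groups overlapped and the F test did not pass (limma adjusted p = 0.0697). Corn stover minus alfalfa hay alone passed, at 0.51 (SE 0.17, limma adjusted p = 0.0371), and in 11 of 18 fits that each left out 1 sample. It was lost without alfalfa hay replicate 1, 3, 4 or 5 or corn stover replicate 1, 2 or 6 (limma adjusted p up to 0.0955). Corn stover minus rice straw was 0.38 and did not pass (SE 0.17, limma adjusted p = 0.0909). miR-9-5p had medians of 150 CPM with corn stover, 213 with alfalfa hay and 187 with rice straw (limma adjusted p = 0.227). miR-1224 had medians of 2.37, 2.55 and 2.48 CPM in the same order (limma adjusted p = 0.843).

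The scaling bears on these jejunum results. With CPM as deposited, the median difference over all miRNAs was -0.18 for corn stover minus rice straw, and 31 miRNAs were called higher against 66 lower (32.0% higher). With trimmed-mean (TMM) scaling the median was -0.01 and the split turned to 63 higher against 35 lower (64.3% higher). With upper-quartile scaling the median was -0.12 and the split did not turn, at 41 higher against 64 lower (39.0% higher). Against alfalfa hay the share called higher was 36.5% as deposited, 63.9% with TMM and 43.3% with upper-quartile scaling. Relative to the median of all miRNAs, miR-7 was still lower with corn stover than with rice straw under TMM (-0.68, limma adjusted p = 0.0448), although its F test no longer passed (limma adjusted p = 0.101). miR-153 was at -0.31 and did not pass (F test, limma adjusted p = 0.247). miR-375 then passed the F test (limma adjusted p = 0.0123), with corn stover above rice straw by 0.58 (limma adjusted p = 0.0222) and above alfalfa hay by 0.70 (limma adjusted p = 0.00756). With upper-quartile scaling the corn stover minus rice straw difference passed for miR-7 (-0.81, limma adjusted p = 0.0211) but not for miR-153 (-0.44, limma adjusted p = 0.0592) or miR-375 (0.45, limma adjusted p = 0.0882), and miR-375 was above alfalfa hay by 0.56 (limma adjusted p = 0.0449).

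Cell type miRNAs were summed by diet in jejunum, without a test. The smooth muscle list had a median of 256990 CPM with corn stover (184453 to 296908), 205043 with alfalfa hay (147053 to 246794) and 187098 with rice straw (151920 to 237701). The immune list had medians of 21088 CPM (18567 to 29324), 29560 (20154 to 31481) and 28254 (20942 to 31272) in the same order, and the miR-200 list 7036 (4714 to 10702), 8428 (6343 to 9966) and 7923 (7423 to 8913). All 3 lists overlapped between diets, and their part in the diet differences was not tested.

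Among the other neural miRNAs in jejunum 3 of 16 passed the diet F test, namely miR-128, miR-212 and miR-326, against 23.7% of all miRNAs there. They did not share a direction. With corn stover miR-128 was higher than with alfalfa hay (0.47, limma adjusted p = 0.0124). Against rice straw, corn stover was higher for miR-326 (0.50, limma adjusted p = 0.0155) and lower for miR-212 (-0.71, limma adjusted p = 0.0149). Of the miR-183 cluster 2 of 3 passed, and miR-96 had the larger change. It was lower with corn stover by 1.37 on the log2 scale than with rice straw (-1.37, SE 0.21, limma adjusted p = 7.28e-05) and than with alfalfa hay (-1.37, SE 0.21, limma adjusted p = 7.77e-05). miR-183 was lower with corn stover than with alfalfa hay (-0.83, SE 0.22, limma adjusted p = 0.0105) and than with rice straw (-0.63, SE 0.22, limma adjusted p = 0.0412). With TMM scaling miR-96 (F test, limma adjusted p = 0.000452), miR-128 (limma adjusted p = 2.05e-05) and miR-326 (limma adjusted p = 0.00109) still passed. The F tests of miR-183 (limma adjusted p = 0.0992) and miR-212 (limma adjusted p = 0.0823) did not pass with TMM.

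**Figure D4:**
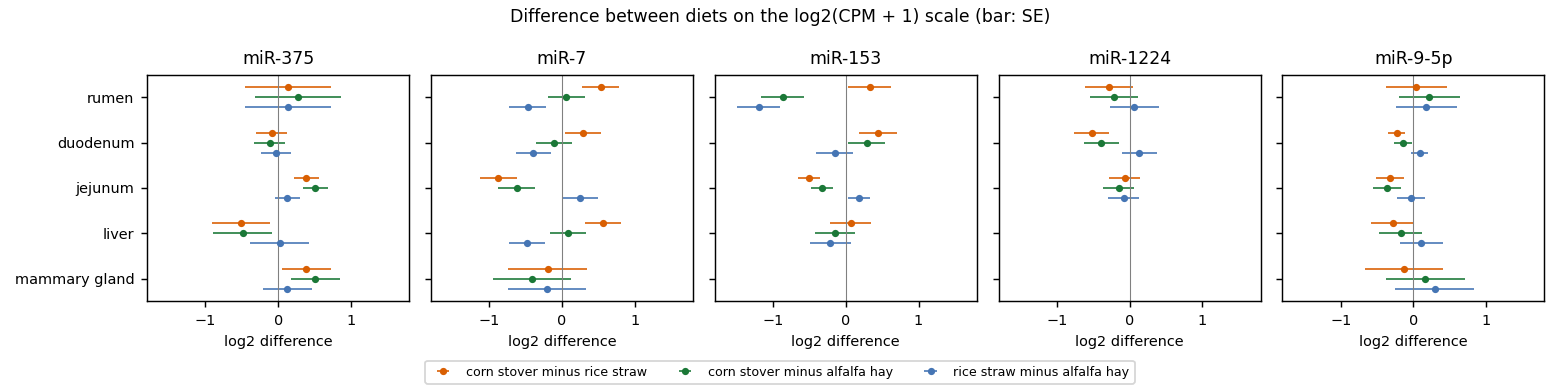
Differences between diets on the log2(CPM + 1) scale for each of the 5 miRNAs in each tissue that lists it; points are fitted differences and bars SE, from fits of 18 samples per tissue. The jejunum differences of miR-7 and miR-153 between corn stover and rice straw, at -0.87 and -0.50, are those whose F test passed, and the rumen difference of miR-153 between rice straw and alfalfa hay is the widest from 0, at -1.20.

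In rumen 1.47% of 340 miRNAs passed the diet F test and none of the 5 did. miR-153 came nearest, with 3.02 to 17.0 CPM on alfalfa hay (median 6.90), 2.25 to 4.90 on corn stover (median 3.71) and 1.90 to 4.995 on rice straw (median 2.26). The ranges overlapped. Rice straw minus alfalfa hay passed by itself, at -1.20 (SE 0.29, limma adjusted p = 0.0264), where 1.47% of all miRNAs were called lower, and it passed with TMM (limma adjusted p = 0.0224) and upper-quartile scaling (limma adjusted p = 0.0169). It passed in 11 of 18 fits without 1 sample, and was lost without rice straw replicate 1, 2, 3 or 4 or alfalfa hay replicate 1, 5 or 6 (limma adjusted p up to 0.0779). The F test over the 3 diets gave a limma adjusted p = 0.0696. The F test passed with upper-quartile scaling (limma adjusted p = 0.0413), in edgeR (adjusted p = 0.0480) and in DESeq2 (adjusted p = 0.00780) on reads recovered from the CPM, and without alfalfa hay replicate 2 (limma adjusted p = 0.00942) or replicate 3 (limma adjusted p = 0.0466). These values rest on 6 to 72 reads per sample. For rice straw minus alfalfa hay TMM scaling moved the median of all rumen miRNAs from 0.17 to 0.06.

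No miRNA passed the diet F test in duodenum or liver with limma, with 37 miRNAs in duodenum and 17 in liver at an unadjusted p under 0.05. edgeR called 0 in both, and DESeq2 called 0 in duodenum and 1 in liver. The 5 miRNAs had limma adjusted p from 0.551 to 0.964 in duodenum and, for the 4 listed, from 0.867 to 0.926 in liver. In mammary gland 3.66% passed and the limma adjusted p of the 3 listed ran from 0.494 to 0.898. There TMM scaling moved the median of all miRNAs for corn stover minus rice straw from 0.63 to 0.01. Of the neural list, 0 of 13 passed in rumen, 0 of 17 in duodenum, 0 of 9 in liver and 1 of 7, miR-128, in mammary gland, and of the miR-183 cluster 0 of 3 in each of the 4.

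Co-variation in the gut was described from deviations of log2(CPM + 1) from the mean of each tissue and diet, so that neither a segment nor a diet difference enters. Over the 36 gut samples the 10 pairs of the 5 miRNAs had a median r of 0.18, against 0.19 over all 54615 pairs of miRNAs listed in both segments. Both medians were close. The closest pair was miR-375 with miR-153 (r = 0.60, n = 36, and 0.53 without the 2 samples farthest out in miR-375). With deviations from the tissue mean, so that diet differences enter, this pair was at 0.32 and miR-7 with miR-153 was closest at 0.50. miR-9-5p had r between -0.05 and 0.12 with the other 4. All values of a sample share a library, its depth and its CPM total, and no test was made.

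Over the same 10 pairs the median r was 0.45 in duodenum and 0.12 in jejunum (n = 18 each). The low r of miR-9-5p was seen before the pairs without it were taken. In duodenum the 6 pairs among miR-375, miR-7, miR-153 and miR-1224 had r from 0.45 to 0.79 with a median of 0.52, while the median over all pairs there was 0.21. miR-375 with miR-153 was at 0.79 (0.70 without the 2 farthest samples) and with miR-1224 at 0.68 (0.71). In jejunum the same 6 pairs ran from -0.35 to 0.18 with a median of -0.02, against 0.18 over all pairs. miR-375 with miR-153 was at 0.18 (0.0034 without the 2 farthest samples) and miR-375 with miR-7 at -0.35 (-0.13). The difference between the segments was not tested.

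**Figure D5:**
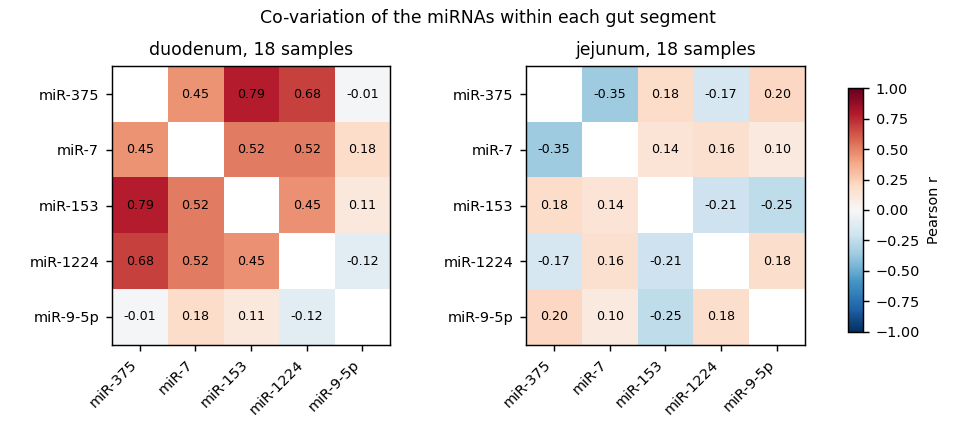
Pearson r between each pair of the 5 miRNAs in duodenum (left) and jejunum (right), over 18 samples each, of deviations from the mean of the diet in log2(CPM + 1); colour gives r from -1 to 1. The 6 pairs without miR-9-5p lie between 0.45 and 0.79 in duodenum and between -0.35 and 0.18 in jejunum.

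The miRNAs most like each of the 5, among 235 with a mean of at least 10 CPM in gut, were taken as the 3 with the highest r. For miR-375 they were the epithelial miR-200a (r = 0.74), miR-200b (r = 0.70) and miR-429 (r = 0.65), which come from a shared cluster, and these held in both segments (0.69 to 0.72 in duodenum and 0.63 to 0.80 in jejunum). miR-153 was nearest to miR-375 (r = 0.60), miR-141 (r = 0.60) and miR-200b (r = 0.60). In turn these had r of 0.79, 0.83 and 0.77 in duodenum but 0.18, 0.37 and 0.47 in jejunum. miR-7 was nearest to miR-148b (r = 0.66), miR-24-3p (r = 0.63) and miR-301b (r = 0.62), with r of 0.43 to 0.66 in duodenum and 0.59 to 0.83 in jejunum.

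miR-9-5p was nearest to miR-301a (r = 0.68), miR-101 (r = 0.63) and miR-2284x (r = 0.63), with r of 0.79 to 0.80 in jejunum and 0.06 to 0.18 in duodenum. miR-1224, at few reads, was nearest to miR-193a-3p (r = 0.50), miR-369-3p (r = 0.48) and miR-411c-5p (r = 0.45). Of these miR-193a-3p had r = 0.27 in duodenum and 0.78 in jejunum, miR-369-3p 0.50 and 0.48, and miR-411c-5p 0.58 and 0.36. Each r is over 36 libraries, and the nearest miRNAs were picked as the highest of many.

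In the other tissues some pairs had a higher r than over the 36 gut samples and some a lower one. In rumen miR-7 and miR-153 had r = 0.59 (0.38 without the 2 samples farthest out in miR-7) against 0.37 in the gut, while miR-153 and miR-1224 had r = -0.68 (-0.37) against 0.25. In liver miR-153 and miR-9-5p had r = 0.49 (0.51) against -0.05, and miR-375 and miR-9-5p had r = 0.44 (0.16) against 0.11. In mammary gland miR-7 and miR-9-5p had r = 0.67 (0.57) against 0.12. The liver and mammary gland values are over 18 libraries that include the one that stood apart. Rumen miR-1224 (0 to 13 reads) and liver miR-153 (0 to 23 reads) each had 4 samples under 3 reads. Mammary gland miR-9-5p had 2 such samples, so the r values with these rest on few reads.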

How the data were processed

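Small RNA libraries of 90 samples were sequenced as 50 bp reads, per the study's methods. The authors removed low-quality reads with CASAVA 1.8, trimmed adaptors and aligned reads over 15 nt to bovine precursors (miRBase 22) with sRNAbench, allowing 2 mismatches and 10 mappings. The deposited values are CPM, the authors' reads of a miRNA scaled to the reads mapped to all miRNAs, although the paper calls them counts. In all 90 samples the values up to 5000 steps (232 to 293 per sample) were whole multiples of 1 step (within 0.1 read), and reads were recovered from it. A stricter search, which takes the smallest value as 1 read and needs 100 values up to 20 steps, recovered whole reads in 6 samples, so recovered reads are an estimate. miR-124a and miR-124b, and miR-129 and miR-129-5p, hold identical values.

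Groups came from the labels, which give no batch. limma 3.58.1 (R 4.3.3) was run on log2(CPM + 1), with an intensity trend and Benjamini-Hochberg adjustment over all miRNAs tested. Fold changes on that scale understate changes of low values. edgeR 4.0.16 and DESeq2 1.42.0 on recovered reads were alternatives. Figures used matplotlib 3.10.9. The members and lists were chosen with earlier results of these data known. The lists were 16 neural miRNA names, the miR-183 cluster and cell type markers, and the 3 nearest miRNAs by r were named. In a simulation of each tissue, 60 miRNAs with a mean of at least 10 CPM were given a log2 difference of 1 with corn stover. The diet test found 56 (jejunum), 56 (duodenum), 49 (rumen), 49 (liver) and 8 (mammary gland). Among the unchanged miRNAs it called 3, 4, 1, 0 and 1 in the same order. The shares found do not cover scarcer miRNAs, such as miR-1224, or smaller differences. They also do not cover a tissue where far fewer than 60 miRNAs differ, since the adjustment is then stricter.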

Additional observations from a re-analysis of the deposited data

Results flagged for a closer look

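In groups of 6, the highest or lowest sample of one of the 5 miRNAs stood apart from the rest by Dixon's criterion in 10 of 66 groups. A rate of about 1 in 20 would apply to independent, normally distributed values. These values are CPM and the groups share libraries, so no comparison with that rate is made. The values below are given without an explanation.

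Liver alfalfa hay replicate 2 was highest for miR-375, at 475 CPM against at most 165 in its group, and for miR-9-5p, at 21.3 CPM against 10.7. The same library ranked 1 of 18 for miR-205, the miR-200 list and the immune list (10633 CPM against 3975 to 7896), and 10 of 18 for miR-122 (11014 CPM). Mammary gland rice straw replicate 3 had 117 CPM of miR-7 against at most 14.7 in its group. It also ranked 1 of 18 for miR-122 (48.5 CPM against 0 to 34.8), for smooth muscle miRNAs and for striated muscle miRNAs. Jejunum corn stover replicate 3 had 52.0 CPM of miR-7 against at most 30.8, and the lowest miR-200 list of the 18 jejunum samples (4714 CPM). Without it miR-7 differed more between the jejunum diets (limma adjusted p = 0.00495). Liver rice straw replicate 2 had 27.5 CPM of miR-9-5p against 11.0 and was the highest of 18 for smooth muscle miRNAs (177587 CPM). The part of these marker miRNAs in the values was not tested.

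Rumen alfalfa hay replicate 3 had 106 CPM of miR-375 against at most 30.7, and rumen corn stover replicate 4 had 97.5 CPM against at most 26.0. Rumen rice straw replicate 5 had 4.995 CPM of miR-153 against 2.79. Jejunum alfalfa hay replicate 1 was lowest for miR-1224, at 1.47 CPM against 2.34, and duodenum rice straw replicate 4 was lowest for miR-9-5p, at 136.5 CPM against 185.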

How the results depend on the processing

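The tested diet differences within a tissue rest on the spread between 6 cows per diet. Differences between segments rest on 36 samples from 18 cows, with both segments of a cow taken as separate samples. The values of miR-1224, miR-9-3p, rumen and liver miR-153 and mammary gland miR-9-5p rest on few reads. The number of miRNAs passing the diet F test in rumen, 5, became 2 with TMM scaling and 8 at a mean of at least 10 CPM. It became 16 in DESeq2 and 3 with a term for the replicate number shared across diets. In mammary gland 12 became 0 with a pseudocount of 0.1 or in edgeR, 36 in DESeq2 and 54 with the same term. In liver 0 became 1 in DESeq2. Leaving out 1 sample at a time, chosen after seeing the data, gave 0 to 27 in rumen (27 without alfalfa hay replicate 2, 22 without replicate 3, 0 in 12 of 18 fits), 0 to 1 in duodenum (1 without rice straw replicate 3) and 67 to 106 in jejunum. It gave 0 to 3 in liver (3 without rice straw replicate 6, 1 without alfalfa hay replicate 2) and 0 to 83 in mammary gland (83 without alfalfa hay replicate 1, 56, 38 and 30 without rice straw replicates 3, 6 and 2, 0 in the other 14). The causes were not tested.

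Jejunum minus duodenum of miR-1224 moved from -0.89 to -0.47 with a pseudocount of 5, which shrinks low values by construction, and that of miR-9-5p, 0.03, was -0.04 with upper-quartile scaling and -0.03 without the cows fed alfalfa hay. The other segment values and the median co-variation (0.17 to 0.23) held. The jejunum F test of miR-7 was also lost in edgeR (adjusted p = 0.0522), and that of miR-153 with a pseudocount of 5 (limma adjusted p = 0.0515) and upper-quartile scaling (limma adjusted p = 0.132). The F test of miR-375 passed in DESeq2 (adjusted p = 0.0489).

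Same-numbered duodenum and jejunum samples of a diet deviated together with a median r of 0.24, over 0.1 in 14 of 18, and 10 of 18 duodenum samples correlated best with their own number. The labels do not say that a number is a cow, so the numbers were not used to pair samples. With a term for each combination of diet and number, the diet by segment interaction passed for miR-7 (limma adjusted p = 0.0139) and miR-153 (limma adjusted p = 0.0448). The diet F tests had another term, the number shared across diets, which joins different cows. Same-numbered jejunum samples of different diets had a median r of -0.03. With that term the jejunum F tests of miR-7 (limma adjusted p = 0.0675) and miR-153 (limma adjusted p = 0.0711) did not pass.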
